A study of Mus musculus with 71 samples.

Results

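The comparison described here set 2 libraries of mouse oocytes labelled Sub1 knockout against 2 libraries of wild-type oocytes, all made in culture and taken on day 11 of differentiation. They were chosen by their labels, and are 4 of the 71 samples and 2 of the 34 groups of the series. The 6 libraries of the Lhx8, Figla and Stat3 knockouts of day 11, with n = 2 each, served as further references, and the 2 wild-type libraries of day 13 are quoted for the later level. All these cells came from embryonic stem cells of the strain C57BL/6 X 129, and wild-type and knockout cells alike carried Blimp1-Venus and Stella-CFP, which report germ cell identity. The stem cells were turned into primordial germ cell-like cells and grown with the somatic cells of female gonads (embryonic day 12.5), from which antibodies to SSEA1 and CD31 had removed germ cells. The oocytes were then sorted by flow cytometry for the Stella-CFP reporter. The knockouts are named in the sample titles, while the genotype field of every library lists the reporters alone. The labels do not say how Sub1 was disrupted, which exons were targeted, how many clones were used, or whether replicates came from separate cultures. The p-values below therefore measure the spread between libraries, which may be technical.

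An oocyte of this stage leaves the early steps of meiosis, becomes enclosed in a primordial follicle and then starts to grow. During growth it accumulates the transcripts of the egg coat, of secreted factors that act on granulosa cells, and of proteins stored for the embryo, under transcription factors such as NOBOX, FIGLA, LHX8, SOHLH1 and TBPL2. Before that, the same cell transcribes the genes of homologous pairing and recombination. SUB1 is a chromatin-associated protein that binds single-stranded DNA and acts as a coactivator of RNA polymerase II.

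RNA was measured as polyA-selected, strand-specific sequencing, and the deposited values are TPM, a transcript abundance that scales each gene by its length and brings each library to a common total. The read depth of a library cannot be read from TPM. In the 10 day 11 libraries 9340 to 10111 genes reached 1 TPM, and the 2 replicates of a group correlated across genes at r = 0.967 to 0.988. The genes in the table held 65.1 to 70.8% of a library's total, since the table used here covers nearly only chromosomes 1 to 5 and 10 to 19. Changes are differences of log2(TPM + 1), which understates the changes of low genes, tested with limma. A gene was called where its Benjamini-Hochberg adjusted p was under 0.05 and its log2 difference was at least 1 in size, and "rose" and "fell" refer to such calls. Fewer cells of a type and less RNA per cell cannot be told apart in libraries of this kind.

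Sub1 itself, on chromosome 15 (11981339 to 11996983, minus strand, GRCm38), was still read in the libraries that carry its name. It stood at 345 and 316 TPM there, against 448 and 481 TPM in the wild-type libraries. The groups did not overlap, and the log2 difference was -0.49 (SE 0.087, limma adjusted p = 5.3e-05), which is under the limit of 1. Libraries with other labels had similar levels: 322 and 317 TPM in the Stat3 knockout and 339 and 297 TPM in the Figla knockout, which overlap the Sub1-labelled pair. The Lhx8 knockout, at 375 and 396 TPM, lay above both Sub1-labelled libraries and below both of wild type. Tested directly, the Sub1-labelled libraries differed from these by a log2 of 0.045 (adjusted p = 0.83), 0.056 (0.69) and -0.22 (0.094). Among the 21 in vitro groups their mean ranked 5 from the lowest, above the Nobox knockout at 239 and 239.8 TPM. A gene-level TPM does not show whether the remaining transcript was intact, so the label could be neither borne out nor contradicted by it. These libraries are called Sub1-labelled throughout.

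**Figure D1:**
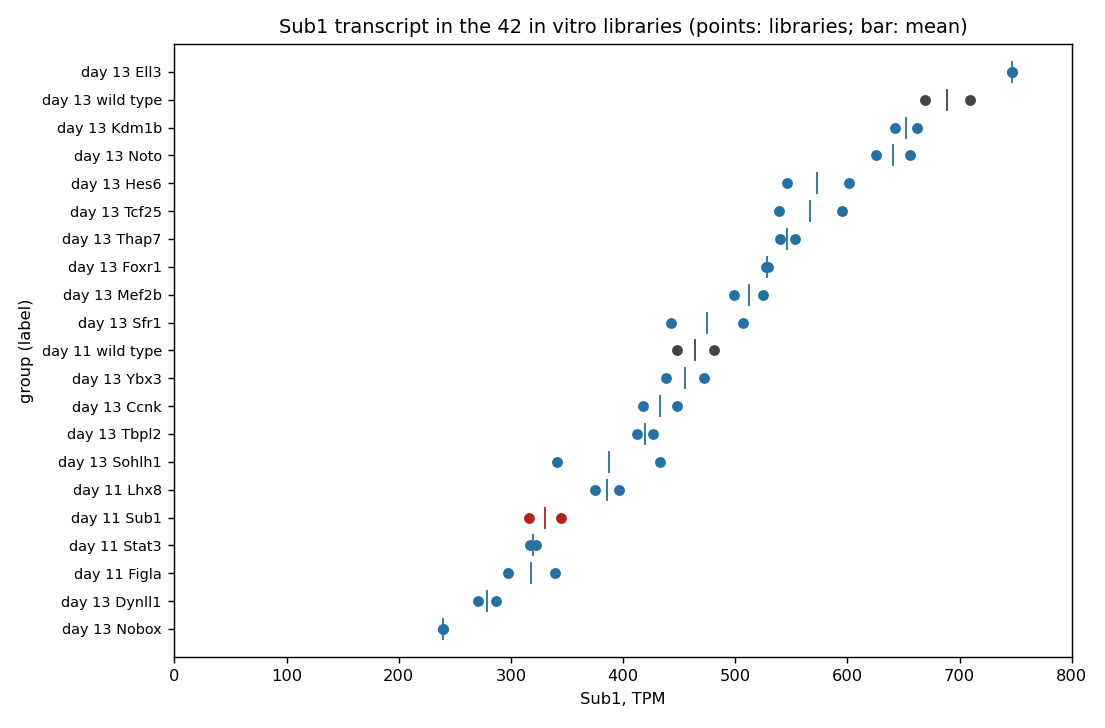
Sub1 level in TPM (horizontal axis) in the 21 in vitro groups (vertical axis, ordered by mean), with a point for each of 2 libraries and a bar for their mean. The Sub1-labelled group (red) lies at 345 and 316 TPM, in place 5 from the bottom and level with the Stat3 and Figla knockouts of day 11.

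Against wild type, 1661 of 12306 genes tested rose (13.5%) and 1139 fell (9.26%), together 2800 (22.8%). The median log2 difference was 1.67 among the genes that rose and -1.64 among those that fell. Large differences were more often rises: 193 genes rose by a log2 of at least 3, and 106 fell by as much. Of the risers 347 were at 0 in both libraries of wild type, and of the fallers 142 were listed at 0 in both Sub1-labelled libraries. Values of the groups overlapped in 61 of the risers and 42 of the fallers. Rescaling by the median of ratios shifted the Sub1-labelled libraries by 0.104 on the log2 scale against wild type, and the counts became 1408 higher and 1278 lower. With the spread taken from these 4 libraries alone, an alternative added after the data were seen, 1080 rose and 729 fell.

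Most genes of the egg coat, of secretion and of the maternal store fell. All 3 egg coat genes in the table fell. So did all 4 of the subcortical maternal complex, the assembly under the egg membrane that early embryos need. In the list of secretion 4 of 6 genes fell, but these include Nlrp4f, which is also counted in that complex. Of 23 further transcripts known from growing oocytes 14 fell and 0 rose, and 4 could not fall, being at 0 in both wild-type libraries. Of 13 genes that store or hold back maternal mRNA 6 fell and 2 rose. The 48 different genes of these lists had a median log2 difference of -1.62, against 0.018 over all genes tested. Their members are known from growing oocytes and the lists were chosen with earlier results of these data in view.

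Zp3 encodes a structural glycoprotein of the zona pellucida and lies on chromosome 5 (135980099 to 135988624, plus strand). It stood at 1943 and 1843 TPM in wild type and at 51.2 and 59.5 TPM in the Sub1-labelled libraries. Both of the latter lay far below wild type, but above the other knockouts of day 11: 15.1 and 14.1 TPM (Lhx8), 1.05 and 1.97 (Figla), and 9.95 and 11.7 (Stat3). The log2 difference from wild type was -5.07 (SE 0.11, limma adjusted p = 8.0e-22). Wild-type oocytes of day 13 had 16423 and 16226 TPM. Zp1, which links zona filaments, went from 684 and 655 TPM to 46.3 and 22.9 TPM (log2 -4.32). Astl, the protease ovastacin that cleaves the zona after fertilisation, went from 237 and 234 TPM to 22.5 and 20.2 TPM (log2 -3.40).

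Padi6, a core protein of the cytoplasmic lattices on chromosome 4 (140727355 to 140742643, minus strand), was the most abundant of the fallers named here. It measured 4245 and 4138 TPM in wild type and 193 and 201 TPM in the Sub1-labelled libraries (log2 -4.41, SE 0.12, adjusted p = 1.3e-19). The other 3 knockouts lay between 25.6 and 36.0 TPM, so the Sub1-labelled pair stood between wild type and all of them. Tle6 of the same complex had 1211 and 1201 TPM in wild type and 236 and 201 TPM in the Sub1-labelled pair (log2 -2.47). Nlrp4f went from 454 and 375 to 56.8 and 32.3 TPM, and Zbed3 from 321 and 349.5 to 47.3 and 33.5 TPM. How reads shared by near-identical family members were counted is not stated, so values of the Nlrp4 and Oas1 families are uncertain.

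Among secreted factors Gdf9, the growth factor by which the oocyte directs granulosa cells, had 400.2 and 448 TPM in wild type. In the Sub1-labelled libraries it had 54.1 and 11.4 TPM, a log2 difference of -4.02 (SE 0.35). The Sub1-labelled replicates differed here more than those of wild type, yet both were above every Lhx8, Figla and Stat3 library, where Gdf9 lay between 0.62 and 6.7 TPM. Oosp1 and Oosp2, small oocyte-secreted proteins, had log2 differences of -3.93 and -4.46. Of stored-message factors, Zar1, which binds maternal mRNA, fell from 59.1 and 46.9 to 3.11 and 7.45 TPM, and Eif4e1b, an oocyte form of the cap-binding protein, from 81.9 and 97.9 to 3.15 and 0.67 TPM. Cpeb2 rose from 11.8 and 8.26 to 40.0 and 45.6 TPM and Cpeb4 by a log2 of 1.09, both polyadenylation regulators. The rise of Cpeb4 was under the limit of 1 after rescaling (0.98) and without replicate 2 of wild type (0.89).

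Npm2, the nucleoplasmin that remodels sperm chromatin, went from 805 and 715 TPM to 40.5 and 83.8 TPM (log2 -3.68). The oocyte members of the Oas1 family fell as well, with log2 differences of -5.05 for Oas1d, -4.31 for Oas1h, -3.95 for Oas1c and -3.79 for Oas1e. Others of the growing-oocyte list were not called, among them Oog1 to Oog4, Ccnb1, Fmn2 and Sebox. The log2 difference of Oog1, Oog2 and Oog3 was 0, which does not show a level that was kept. In both wild-type libraries 4 of the 23 members were listed at 0, so these could not fall. By size of change the leading fallers with non-overlapping groups included genes of no list: Prr15l, listed at 0 in both Sub1-labelled libraries and at 46.0 and 52.7 TPM in wild type, and Miox, an inositol oxygenase, which went from 134 and 144 to 1.95 and 3.89 TPM. Tdh, the threonine dehydrogenase known from embryonic stem cells, went from 21.5 and 44.3 to 0.63 and 0 TPM.

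**Figure D2:**
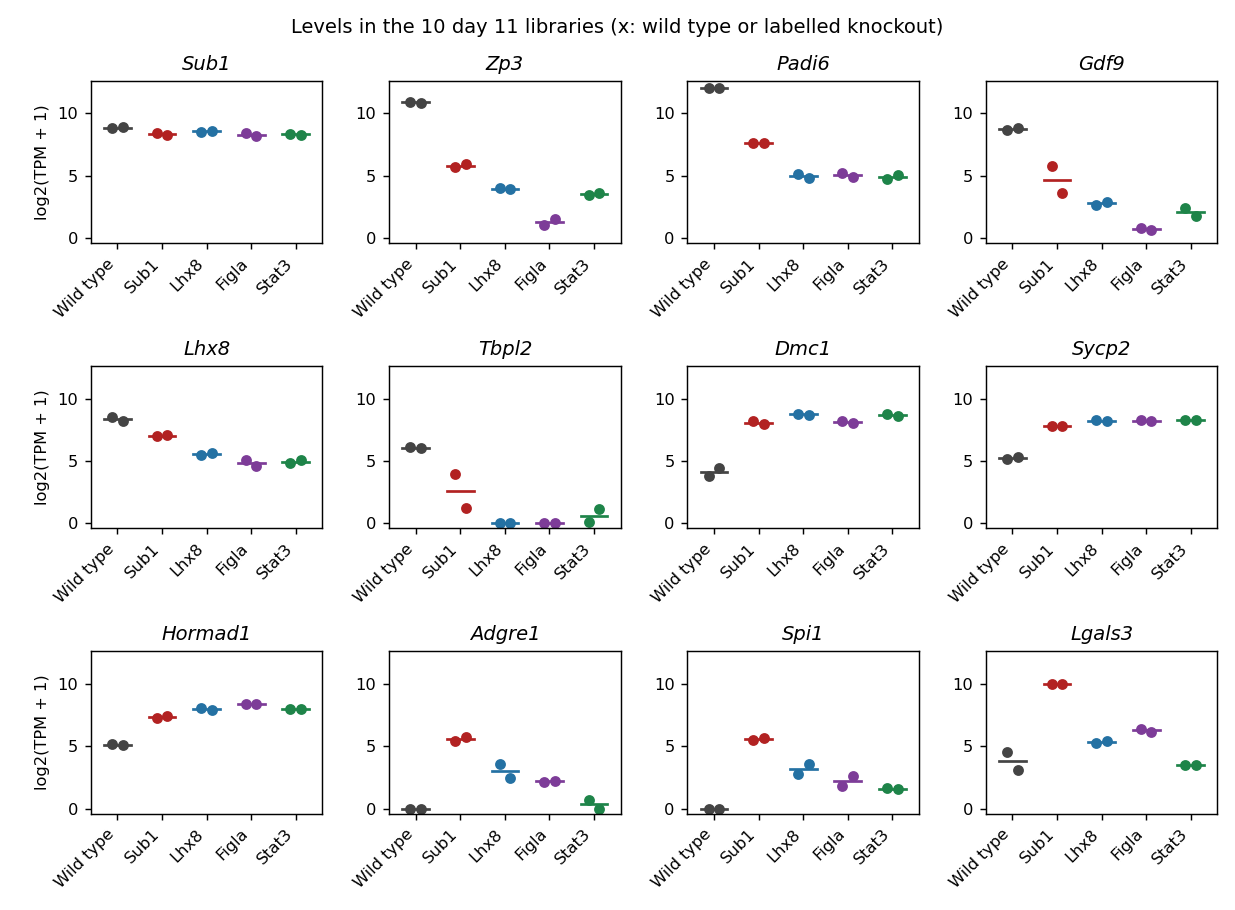
Level as log2(TPM + 1) (vertical axis) of 12 genes in wild type and the 4 labelled knockouts of day 11 (horizontal axis), with a point per library and a line at the group mean. Zp3, Padi6, Gdf9, Lhx8 and Tbpl2 of the Sub1-labelled libraries (red) lie between wild type and the other knockouts, Dmc1 overlaps the other knockouts, Sycp2 and Hormad1 lie above wild type and below the other knockouts, and Adgre1, Spi1 and Lgals3 lie above every other group.

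Transcription factors of this stage fell as well, 4 of 9 in their list, and 1 rose. Lhx8, a homeobox factor of early oocytes, measured 374 and 287 TPM in wild type and 127 and 132 TPM in the Sub1-labelled libraries (log2 -1.33, SE 0.12, adjusted p = 8.7e-10). It was lower still, at 22.7 to 47.8 TPM, in the other 3 knockouts. Sohlh1, a basic helix-loop-helix factor of primordial follicles, went from 1125 and 1218 to 351 and 333 TPM (log2 -1.77). Its fall did not pass with a pseudocount of 0.1 (adjusted p = 0.12). Tbpl2, the oocyte relative of the TATA-binding protein, stood at 67.0 and 64.1 TPM in wild type and at 14.9 and 1.33 TPM in the Sub1-labelled pair. Zfp57, which guards imprinted methylation, fell from 211 and 215 to 41.5 and 35.6 TPM. Taf4b, a TFIID subunit needed for the ovarian reserve, moved the other way, from 41.1 and 32.2 to 111 and 101 TPM (log2 1.52).

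Of the 12 genes knocked out in the series and present among the genes measured, 6 fell and 0 rose. Besides Lhx8, Sohlh1 and Tbpl2 these were Stat3, Kdm1b and Ell3. Stat3, the transcription factor of cytokine signals, had 309 and 328 TPM in wild type and 111 and 108 TPM in the Sub1-labelled libraries, close to the 116 and 129 TPM of the Lhx8 knockout. Kdm1b, a histone demethylase that prepares imprints, went from 552 and 605 to 111 and 151 TPM (log2 -2.15), and Ell3, an elongation factor, from 143 and 124 to 15.8 and 30.2 TPM (log2 -2.55). Sfr1 and Hes6 differed by -0.83 and -0.68, under the limit of 1. Thap7, Dynll1 and Ccnk differed by 0.16, -0.22 and -0.23.

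Most genes of meiotic prophase rose. Of 11 genes of the chromosome axis and synapsis 6 rose and 1 fell, of 19 recombination genes 12 rose and 1 fell, and of 3 genes of meiotic entry 2 rose. The joined 33 genes had a median log2 difference of 1.82. All 3 meiotic cohesin genes and all 4 genes of break formation were among the risers, of which the cohesin gene Rec8 did not hold its call when any 1 library was left out. The gene that fell in the first list was Skp1a, which also serves general protein turnover, and the one in the recombination list was Mnd1, a partner of strand exchange.

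Dmc1, the meiotic recombinase on chromosome 15 (79561497 to 79605109, minus strand), measured 13.2 and 20.2 TPM in wild type and 287 and 251 TPM in the Sub1-labelled libraries. The log2 difference was 3.96 (SE 0.31, adjusted p = 1.1e-10), and the other knockouts lay between 265 and 441 TPM. By day 13 wild-type oocytes had 1.8 and 6.16 TPM. Spata22, which acts with single-stranded DNA during recombination, went from 22.5 and 16.5 to 219 and 205 TPM. Hfm1, a helicase of crossover formation, went from 18.0 and 11.2 to 147 and 162 TPM, and Msh5, of the same step, from 19.5 and 18.8 to 197 and 157 TPM. Prdm9, the histone methyltransferase that places meiotic breaks, went from 26.4 and 18.3 to 205 and 179.7 TPM. Spo11, which makes the breaks, rose by 3.01 (SE 0.70, adjusted p = 0.0011).

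On the chromosome axis Sycp2 rose from 35.5 and 39.2 to 229 and 219 TPM and Hormad1 from 35.4 and 32.4 to 155 and 171 TPM. Rec8 and Rad21l, the meiotic kleisins of cohesin, rose by 2.63 and 2.39, and Rec8 missed the threshold with a pseudocount of 0.1 (adjusted p = 0.17) and without any 1 of the 4 libraries (log2 2.59 to 2.68, adjusted p = 0.085 to 0.096). Sycp1, Sycp3 and Syce3, further genes of the synaptonemal complex, were not called, though all lay above 0. Sycp1 at 0.84 (limma adjusted p = 1.2e-04) and Sycp3 at 0.74 (4.0e-12) were under the limit of 1. Syce3 at 2.35 (0.066) missed the limit of p. Of meiotic entry genes Rbm46 rose from 39.2 and 33.6 to 125 and 136 TPM and Ythdc2, an RNA helicase, by 1.09 (0.98 after rescaling). Dmrt1, a regulator of germ cell mitosis and meiosis named after its value was seen, had 2.86 and 5.39 TPM in wild type and 219.7 and 241 TPM in the Sub1-labelled libraries.

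Promoters of the most changed genes of these groups are shown to place the fall of oocyte growth genes and the rise of recombination genes on sequence. They are the 2 genes with the largest change, and with 1 promoter window, of the egg coat and maternal complex lists and of the meiotic lists. Each window runs from 250 bases before to 50 after the RefSeq start on GRCm38.p6, printed in the direction of the gene: Zp3 at chr5:135979855-135980154 (plus), Padi6 at chr4:140742594-140742893 (minus), Dmc1 at chr15:79605060-79605359 (minus) and Rad51ap2 at chr12:11455805-11456104 (plus). Capitals mark the E-box CANNTG, the letters bound by helix-loop-helix factors such as FIGLA and SOHLH1.
Zp3: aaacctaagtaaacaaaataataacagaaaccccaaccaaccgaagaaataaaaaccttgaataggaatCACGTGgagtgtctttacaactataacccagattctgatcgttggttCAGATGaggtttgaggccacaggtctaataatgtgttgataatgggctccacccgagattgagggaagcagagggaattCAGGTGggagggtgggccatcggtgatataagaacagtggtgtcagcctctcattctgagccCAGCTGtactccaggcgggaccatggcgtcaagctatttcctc
Padi6: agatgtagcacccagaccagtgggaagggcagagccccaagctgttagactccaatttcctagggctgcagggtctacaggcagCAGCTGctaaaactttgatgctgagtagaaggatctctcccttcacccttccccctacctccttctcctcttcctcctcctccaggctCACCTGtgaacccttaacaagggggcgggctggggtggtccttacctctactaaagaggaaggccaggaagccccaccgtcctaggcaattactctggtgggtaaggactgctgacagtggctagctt
Dmc1: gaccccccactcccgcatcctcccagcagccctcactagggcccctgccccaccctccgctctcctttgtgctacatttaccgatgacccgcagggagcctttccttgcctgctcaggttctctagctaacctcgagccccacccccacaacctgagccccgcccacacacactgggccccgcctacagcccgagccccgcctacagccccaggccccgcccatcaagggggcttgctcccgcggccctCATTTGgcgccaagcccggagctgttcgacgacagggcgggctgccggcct
Rad51ap2: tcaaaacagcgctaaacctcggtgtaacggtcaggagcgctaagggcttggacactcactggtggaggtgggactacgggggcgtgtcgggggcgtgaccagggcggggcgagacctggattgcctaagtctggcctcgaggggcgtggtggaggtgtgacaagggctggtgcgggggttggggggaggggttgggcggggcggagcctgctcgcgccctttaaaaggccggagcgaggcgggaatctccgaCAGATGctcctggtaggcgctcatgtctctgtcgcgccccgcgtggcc

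The Zp3 window held 4 E-boxes, at -181, -134 and -55 bases from the start and 7 bases after it, and that of Padi6 held 2, at -166 and -78. Dmc1 had 1 at -1 and Rad51ap2 1 at 2 bases after the start. An E-box was present in 75% of the 36 windows matched among the oocyte growth genes, in 77.8% of 27 for meiosis genes, and in 65.2% of 9145 for all genes tested. Genes that fell and genes that rose had it in 69.5% of 844 and 64.4% of 1233 windows. All motifs were searched on both strands, and besides the E-box these were 2 homeobox motifs, a TATA box and a STAT motif. The homeobox motif TAATTG was present in 11.1% of the growth windows and 5.07% of all tested. The other, TGATTG, was in 11.1% and 13.8% of them. The TATA box TATAAA was in 5.56% and 8.51%. The STAT motif TTCNNNGAA was in 2.78% and 6.95%. Padi6 held 1 TAATTG, and the other letters were not in these 4 windows. A match shows letters in a window, not a bound site.

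Other germ cell and signalling genes moved both ways. Of 9 germ cell specification genes 3 rose and 3 fell, beside 13.5% and 9.26% of all genes. Dazl, which binds germ cell mRNA, rose from 393 and 458 TPM to 1285 ± 32.7 TPM (SD, n = 2), and Ddx4, the germ cell RNA helicase, from 205 and 214 to 410.3 and 435 TPM. Kit, the receptor by which somatic cells drive oocyte growth, fell from 455 and 494 to 215 and 202 TPM (log2 -1.18). Lin28a had a log2 difference of -2.37. Pou5f1, the pluripotency factor that growing oocytes express again, fell from 374 and 392 to 72.3 and 70.9 TPM. Of 18 piRNA pathway genes 5 rose and 4 fell, to be read against the same shares of all genes. Among the fallers Gtsf1, a factor of transposon silencing, had 766 and 682 TPM in wild type and 114 and 106 TPM in the Sub1-labelled pair. After rescaling Ddx4 and Dnd1 were under the limit of 1, at 0.90 and 0.91, which left 1 riser in the germ cell list, and 3 in the piRNA list. Without replicate 1 of wild type Ddx4 was at 0.98 and Dnd1 at 0.56. Leaving out a Sub1-labelled library also ended the calls, of Ddx4 without replicate 2 (0.97) and of Dnd1 without replicate 1 (0.93).

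The machinery of RNA polymerase II, with which SUB1 works, was mostly not called. Of 39 basal transcription genes 5 rose and 2 fell, and of 50 elongation and mediator genes 8 rose and 4 fell, against 13.5% and 9.26% of all genes. After rescaling 4 of the 50 were higher and 4 lower. Polr2a, the largest polymerase subunit, rose from 130.1 and 147 to 409.8 and 404 TPM. It had 328 to 421 TPM in the Lhx8, Figla and Stat3 knockouts. The TFIID subunits Taf6 and Taf3 rose by 1.22 and 1.17. Gtf2a1l, a germ cell form of TFIIA, fell from 20.8 and 12.7 to 0 and 2.62 TPM, and Med27 and Med30 of the mediator had log2 differences of -1.55 and -1.38. Among chromatin genes Uhrf1, a partner of maintenance methylation, fell from 325 and 325 to 54.0 and 62.9 TPM, while Setdb1 and Suz12, histone methyltransferase subunits, both rose by 1.25. None of these genes, from Polr2a to Suz12, was called between the Sub1-labelled libraries and the Lhx8, Figla or Stat3 knockout. Their differences from wild type are therefore not particular to the Sub1 label.

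Further lists are given as counts, to be read against the 13.5% of all genes that rose and the 9.26% that fell, to which many of them lie close. Of 15 genes of Kit, PI3K and FOXO signalling 2 fell and 0 rose, and Foxo3 and Akt1 were not called. JAK-STAT genes divided into 3 risers and 3 fallers of 19. Of 27 p53 and apoptosis genes 3 rose and 6 fell. Trp63, which guards oocyte quality, fell from 79.3 and 95.6 to 13.3 and 9.5 TPM, and its targets Perp and Pmaip1 had log2 differences of -3.43 and -2.80. Of 22 mitosis genes 4 rose and 3 fell, led by Top2a at 38.6 and 48.5 against 277 and 287 TPM, and of 23 replication genes 3 rose and 1 fell. Of 22 immediate early and heat shock genes 4 rose, while Fos, Jun and Egr1 were not called. Of 43 respiratory chain genes 3 fell and 0 rose, of 19 cholesterol genes 3 rose and 4 fell, and of 12 glycolysis genes 2 rose and 3 fell. Of 18 genes of gap junctions and follicle contact 4 rose and 6 fell. With the spread from the 4 libraries alone 2 of these rose and 4 fell, 1 of the JAK-STAT genes rose and 1 fell, 1 of the cholesterol genes rose and 3 fell, and 1 of the glycolysis genes rose and 2 fell. Among the gap junction genes Gja4, the connexin between oocyte and granulosa cells, fell from 198 and 208 to 27.9 and 34.1 TPM, and Jag1, a Notch ligand of oocytes, from 54.1 and 53.2 to 11.9 and 4.77 TPM.

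**Figure D3:**
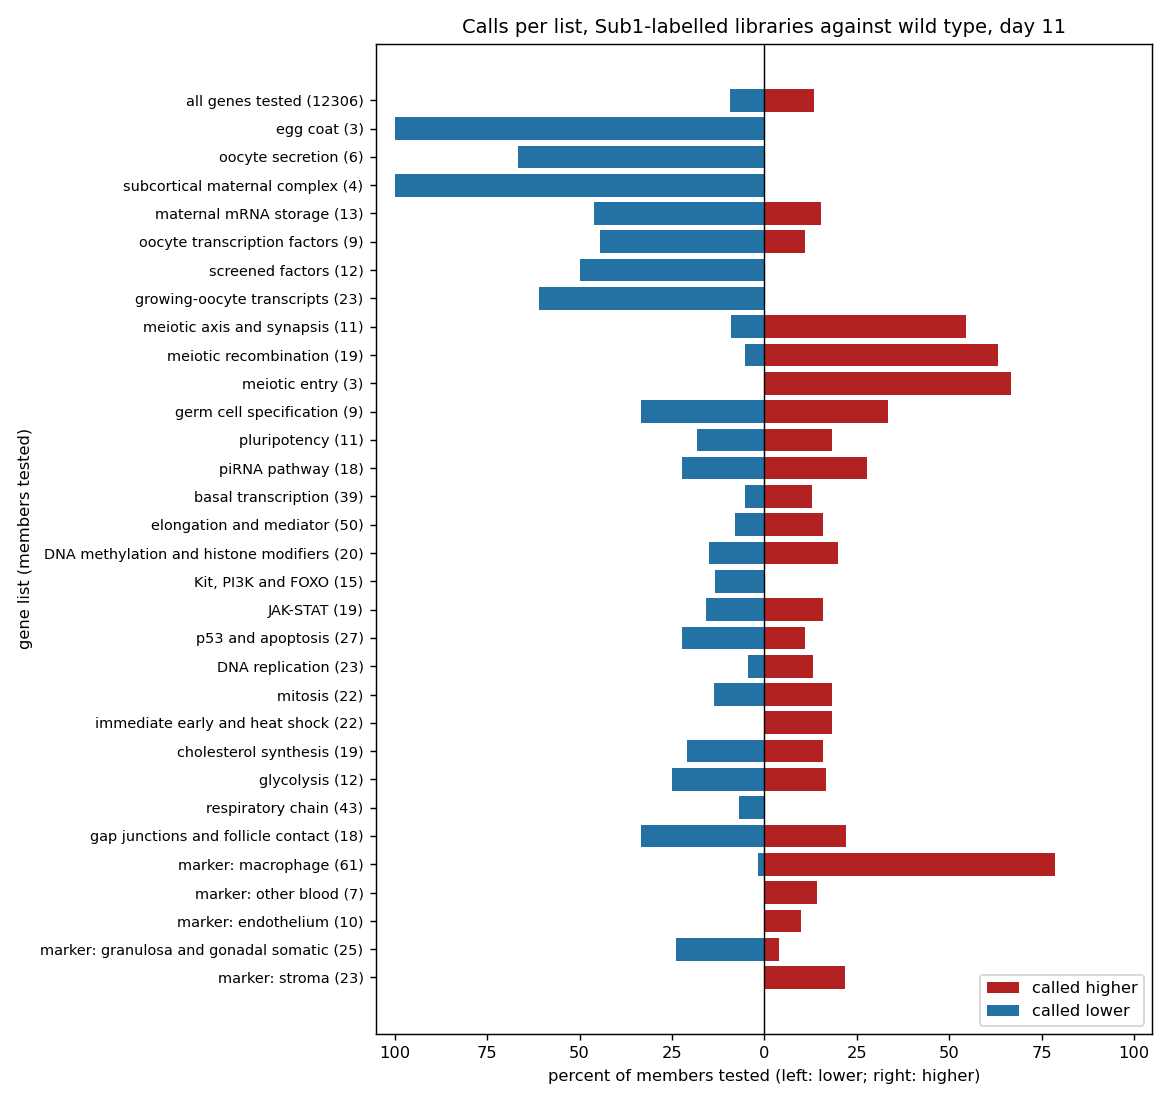
Percent of the tested members of each gene list (vertical axis, number tested in brackets) that were called higher (right, red) or lower (left, blue) in the Sub1-labelled libraries against wild type. All 3 egg coat and all 4 subcortical maternal complex genes fell, the 3 meiotic lists point right, and 48 of 61 macrophage list genes rose, beside 13.5% higher and 9.26% lower over all genes.

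Transcripts of macrophages stood out among the rises. Of 61 genes in a list of macrophage markers and products 48 rose and 1 fell, with a median log2 difference of 2.90, and of its 19 defining surface or lineage markers 17 rose. Of the 193 genes that rose by a log2 of at least 3 this list held 30, while it made up 61 of the 12306 genes tested. The list was chosen with earlier results of these data in view, so these counts describe it and are no test. Adgre1, the classic surface antigen of mouse macrophages, stood at 42.2 and 51.5 TPM in the Sub1-labelled pair, where both wild-type libraries list it at 0 (limma adjusted p = 2.1e-12). Spi1, the master regulator of myeloid cells, had 44.1 and 48.5 TPM here and 0 in wild type. Csf1r, the receptor of the macrophage growth factor, went from 0 in both to 16.3 and 28.7 TPM, and Ptprc, the common antigen of blood cells, from 0 in both to 11.7 and 9.31 TPM. Cd68 had 8.45 and 16.0 TPM in wild type and 262 and 248 TPM in the Sub1-labelled libraries (log2 4.33, SE 0.74). Cd14 and Timd4 were not called, and Timd4 was listed at 0 in both Sub1-labelled libraries. Cd14, at a log2 difference of 1.68, was called higher with day 11 libraries only (adjusted p = 9.6e-04), with the 4 libraries (0.012) and without the Sohlh1 knockout (0.0013). Timd4 was called lower without the Sohlh1 knockout (log2 -1.16, adjusted p = 0.021) and with a pseudocount of 0.1 (0.031).

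Of the 15 largest rises among genes with a symbol other than a clone or predicted name, a group mean of at least 10 TPM and non-overlapping groups, 9 were in the macrophage list and 6 were not. Spp1, osteopontin, had 4.06 and 1.58 TPM in wild type and 1464 and 1382 TPM in the Sub1-labelled libraries (log2 8.62, SE 1.55, adjusted p = 6.3e-05). Lgals3, galectin 3, on chromosome 14 (47367751 to 47386160, plus strand), went from 22.7 and 7.65 to 988 and 1007 TPM. Lyz2, the lysozyme of myeloid cells, was at 0 and 0.15 TPM in wild type and at 639 and 684 TPM here, and Ctss, a cathepsin of antigen-presenting cells, at 0 in both and at 243 and 258 TPM. The complement genes C1qa and C1qc, at 0 in wild type, stood at 112 and 139.8 TPM and at 186 and 114 TPM. Trem2, Fcer1g, Atp6v0d2 and Ccl3 were the other members of the list, and Rgs1, Lilrb4a, Lilr4b, Crip1 and Il1rn, like Lgals3, were outside it. A place outside the list does not show that macrophages lack the transcript. Of antigen-presentation genes 4 of 7 rose and H2-Aa fell.

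Summed over the 61 genes, the list took 11701 and 11403 TPM in the Sub1-labelled libraries and 2922 and 2844 TPM in wild type. Both Sub1-labelled libraries were alike, so no replicate alone carried the signal. The sum was 6346 and 6332 TPM in the Lhx8 knockout, 5079.7 and 4984 TPM in the Figla knockout and 4421 and 4398 TPM in the Stat3 knockout. Over the other 40 in vitro libraries it ran from 2127 to 14354 TPM, and the highest was replicate 2 of the Sohlh1 knockout of day 13, whose replicate 1 had 2679 TPM. The 19 defining markers gave 1122 to 1134 TPM in the Sub1-labelled libraries, 37.7 to 50.7 in wild type, 227 to 249 in Lhx8, 197 to 202 in Figla and 54.8 to 60.4 in Stat3. In wild type 19 of the 61 genes were listed at 0 in both libraries, in the Sub1-labelled pair 1. The other knockouts of day 11 were similar to the Sub1-labelled pair in this, with 1 in Lhx8, 5 in Figla and 2 in Stat3. Whether macrophages remained after the sort for Stella-CFP, and how far such cells take part in the other differences, was not tested.

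**Figure D4:**
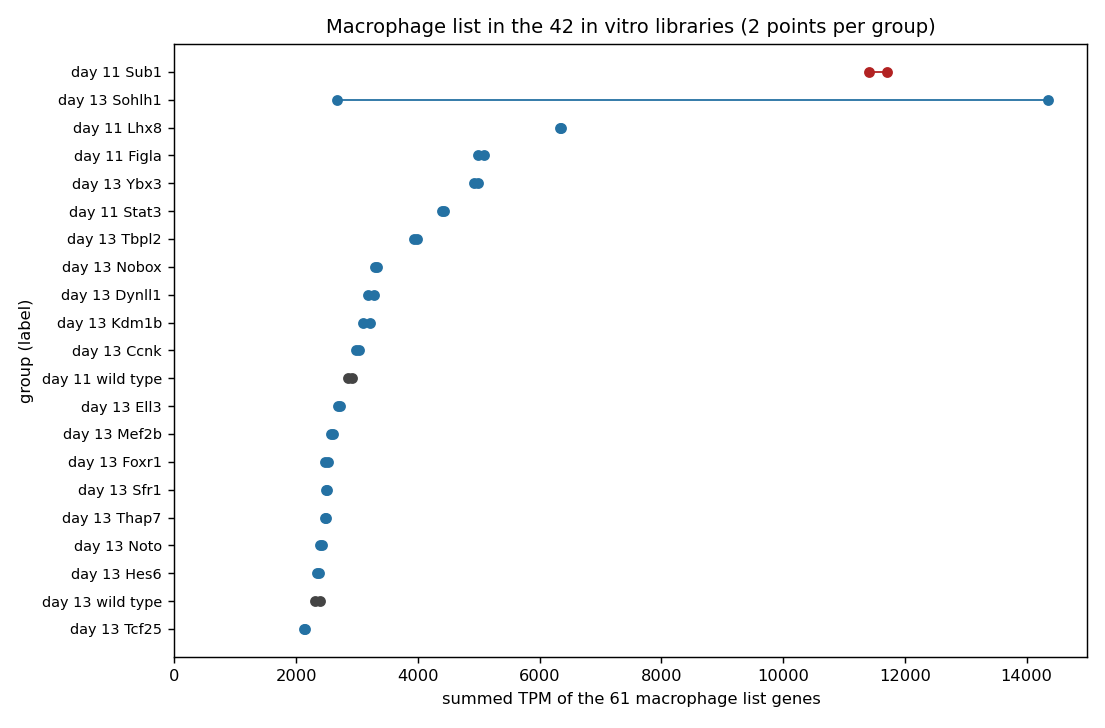
Summed TPM of the 61 macrophage list genes (horizontal axis) in the 21 in vitro groups (vertical axis, ordered by mean), with a point for each of 2 libraries. Both Sub1-labelled libraries (red) lie at 11403 and 11701 TPM, and among the others only replicate 2 of the Sohlh1 knockout, at 14354 TPM, is higher.

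Markers of other cells gave fewer calls than the macrophage list. Of 7 further blood cell genes tested S100a8, of neutrophils and monocytes, rose, from 0 in both wild-type libraries to 8.26 and 6.77 TPM, and 15 of the 16 in the table were listed at 0 in both Sub1-labelled libraries. Of 10 endothelial genes 1 was called, below the 13.5% of all genes. This was Kdr, at 0.91 and 0.06 TPM in wild type and 2.75 and 1.49 TPM in the Sub1-labelled pair (log2 1.10, adjusted p = 0.043). Its call did not hold after rescaling (0.97), with a pseudocount of 0.1, with day 11 libraries or the 4 libraries alone, without Sub1-labelled replicate 1 (0.81) or without wild-type replicate 2 (0.68).

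Of 25 granulosa and gonadal somatic genes 1 rose and 6 fell, beside 13.5% and 9.26% of all genes. Their sum was 1031 and 1012 TPM against 1254 and 1278 TPM. With the 4 libraries alone 2 fell, and with a pseudocount of 0.1 4 fell. Esr2, an estrogen receptor of granulosa cells, had 10.4 and 4.89 TPM in wild type and 0 and 4.95 TPM in the Sub1-labelled pair, so the groups overlapped. Its difference of -1.75 became -0.46 without Sub1-labelled replicate 1 (adjusted p = 0.65) and -1.27 without wild-type replicate 1 (0.21), and was not called with day 11 libraries only (0.091). Inhba had 4.02 and 1.71 TPM in wild type and 0 in both Sub1-labelled libraries, a call lost without wild-type replicate 1 (adjusted p = 0.12). Lgr5 had 3.54 and 4.7 TPM against 1.16 and 0.04 TPM, a call lost without Sub1-labelled replicate 2 (0.083). Of 23 stromal genes 5 rose and 0 fell, beside 13.5% and 9.26% of all genes, and 18 had a log2 difference above 0. Their sums were 2021 and 1852 TPM against 1474 and 1489.5 TPM. Without the Sohlh1 knockout in the fit 11 of the stromal genes rose, and after rescaling 3.

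Set directly against the other knockouts of day 11, without wild type, the Sub1-labelled libraries differed in fewer genes than from wild type. Against the Lhx8 knockout 410 of 12306 genes were higher (3.33%) and 279 lower (2.27%). Against the Figla knockout 771 were higher (6.27%) and 1171 lower (9.52%), and against the Stat3 knockout 518 were higher (4.21%) and 227 lower (1.84%). These 3 comparisons share the Sub1-labelled libraries and are not independent of each other. The Figla titles carry the letters IVD, which the other day 11 titles lack. In the Figla libraries the genes used held 70.8% of the total, against 65.1 to 67.2% in the other day 11 libraries. The titles do not say whether the Figla libraries were made apart, and such an effect could not be told from the knockout. With day 11 libraries alone in the fit the Lhx8 and Stat3 counts, 689 and 745 in either direction, became 357 and 444, and without replicate 2 of the Stat3 knockout the latter became 487.

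Some of the oocyte growth genes, among them Zp3 and Padi6, were higher in the Sub1-labelled libraries than in each of the other 3 knockouts, while most were not called. Of the 48 genes 11 were higher and 0 lower than in the Lhx8 knockout, 14 higher and 2 lower than in Figla, and 14 higher and 0 lower than in Stat3, so 37, 32 and 34 of them were not called. The lower ones against Figla were Gpr3 and Spin1. The median log2 differences were 0.42, 0.52 and 0.39, against 0, -0.079 and -0.014 over all genes. Zp3 was higher by 1.85 against Lhx8 (SE 0.11, adjusted p = 1.4e-11), by 4.51 against Figla and by 2.26 against Stat3. Padi6 was higher by 2.61, 2.55 and 2.71, Gdf9 by 1.89 and 3.95 against Lhx8 and Figla, and Zar1 by 1.66, 2.56 and 2.18. Npm2 was higher by 3.39, 1.45 and 1.90. Lhx8 and Tbpl2 were also higher than in all 3, Lhx8 by 1.48, 2.22 and 2.09. Cox4i2, a subunit of cytochrome oxidase, had 399 and 376 TPM in wild type, 40.8 and 44.5 TPM in the Sub1-labelled pair and at most 3.29 TPM in the other 3 knockouts.

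Most meiotic genes were not called different. Of the 33 genes 0 were called against the Lhx8 and 0 against the Stat3 knockout, and 1 was higher and 3 were lower against Figla. The median differences were -0.36, -0.36 and -0.42, so most values lay slightly below those of the other knockouts. For Dmc1 the differences were -0.68 against Lhx8 (SE 0.31, adjusted p = 0.16), -0.048 against Figla (0.98) and -0.61 against Stat3 (0.21). A p above the threshold does not show that the levels were equal.

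**Figure D5:**
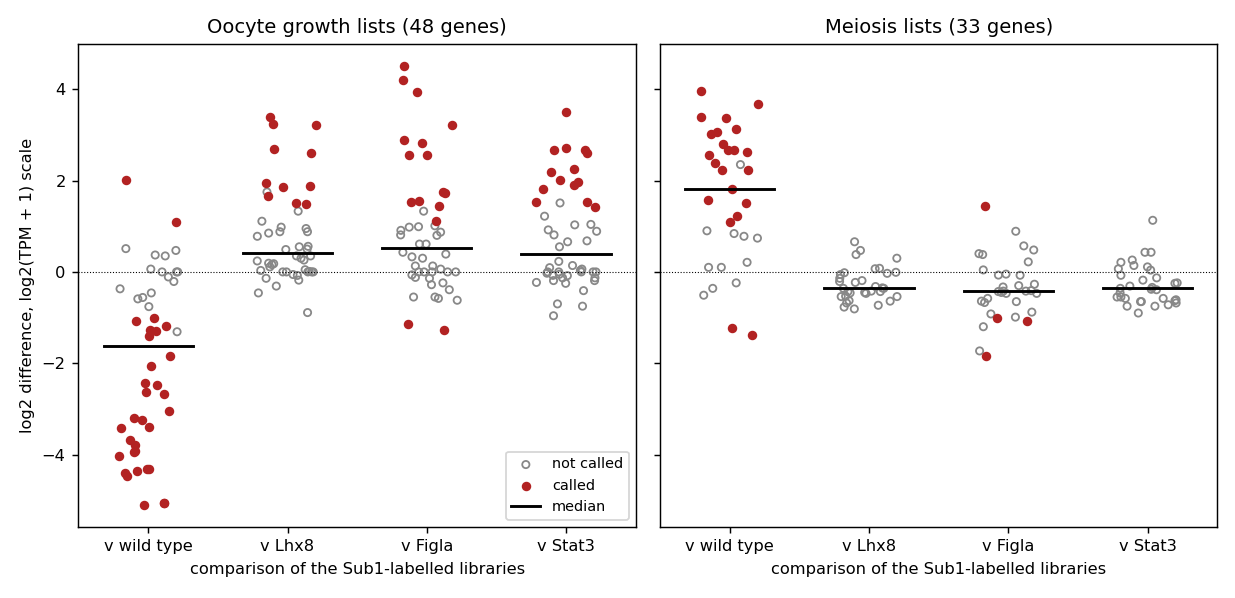
Log2 difference on the log2(TPM + 1) scale (vertical axis) of the 48 oocyte growth genes (left) and 33 meiosis genes (right) between the Sub1-labelled libraries and each other group of day 11 (horizontal axis), with a point per gene, filled where called, and a line at the median. The growth genes lie at a median of -1.62 against wild type and 0.39 to 0.52 against the other knockouts, and the meiosis genes at 1.82 and -0.42 to -0.36.

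Genes of the macrophage list were more often called higher than lower in each direct comparison: 22 of 61 genes higher and 1 lower against Lhx8, 33 and 2 against Figla, and 39 and 1 against Stat3. The median log2 differences were 1.75, 1.91 and 2.49, and 52, 52 and 55 of the genes lay above 0. A missing call does not show an equal level: Lyz2 had a log2 difference of 3.03 from Lhx8 (SE 1.15) and was not called. Over all genes, the largest differences from Lhx8 included Atp6v0d2 of this list, at 92.8 and 108 against 1.15 and 0.87 TPM. Outside the list they included Marco, a scavenger receptor, at 36.3 and 68.7 against 0 and 0 TPM. Cd52 at 113 and 34.8 against 1.44 and 0 TPM, and Stap1 at 29.1 and 31.9 against 0 and 0.41 TPM, were also outside it. Marco was also read in wild type, at 17.3 and 15.2 TPM. Il1b, the inflammatory cytokine, had 60.8 and 68.8 TPM in the Sub1-labelled pair, 7.89 and 11.7 TPM in Lhx8 and at most 0.9 TPM in the remaining day 11 libraries. The lower genes against Figla were led by Atp5g2, at 0 in both Sub1-labelled libraries and 164 and 183 TPM in Figla, and Hmgn2, at 1.63 and 9.03 against 308 and 271 TPM. Wild type had 2.26 and 13.3 TPM of Atp5g2 and 11.9 and 5.39 TPM of Hmgn2, so in these genes the Figla knockout was the one apart from the other groups. Pmaip1, a gene of the p53 response, was lower against Lhx8 (log2 -1.92), with 6.23 and 3.67 against 24.1 and 18.3 TPM.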

How the data were processed

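The authors deposited 1 table of TPM per gene symbol and library. The aligner was STAR 2.6.0 on the build mm10 and the counter featureCounts 1.6.0, per the submitters' processing notes. How multiply mapped reads were counted is not given in the sources used here. Of 148 value columns 80 match no sample of the series by name and were left aside. Of 15163 rows 1 was incomplete and 22 had date-like names, which left 15140 genes, 14555 of them matched to GENCODE M21. TPM gives no depth, so no counting error can be stated.

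Values were taken as log2(TPM + 1) and fitted with limma 3.58.1 in R 4.3.3 (trend, robust), 1 mean per group over 42 in vitro libraries in 21 groups (21 residual degrees of freedom), which share 1 spread. Genes with at least 1 TPM in at least 2 libraries were tested (12306), and p-values were adjusted over all of them by the Benjamini-Hochberg method. The script was tested on simulated data. Alternatives tried were the replicate number as a block, a pseudocount of 0.1, rescaling, no filter, day 11 libraries alone, leaving out the Sohlh1 knockout or each library, no robust option, no fold threshold and, added after the data were seen, the 4 libraries alone.

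Named genes are the genes knocked out in the series, the 15 largest rises and 15 largest falls with non-overlapping groups and a mean of at least 10 TPM in the higher group, up to 6 called members per list with the largest change, the defining cell markers, the 5 highest and 5 lowest of each direct comparison, and the 10 in each direction called in all 4. Predicted and clone names were left out. Dmrt1, Spo11, H2-Aa, list members named as not called and those named for their direction alone were chosen after their values were seen. The comparison and the lists were chosen with earlier results of these data known. Promoter windows are from RefSeq (GRCm38.p6).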

Additional observations from a re-analysis of the deposited data

Results flagged for a closer look

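In 126 genes the Sub1-labelled libraries were called higher than wild type and also higher than the Lhx8, the Figla and the Stat3 knockout of day 11, each by its own test. In 22 genes they were called lower than all 4. The 4 comparisons share the Sub1-labelled libraries, so a value particular to these libraries enters each of them. Of the 126 higher genes 18 are in the macrophage list, which held 61 of the 12306 genes tested, and of the 22 lower genes 0 are. The list was drawn up by hand with earlier results of these data in view, so this count is no test. It does not hold every gene of such cells. Those with the largest smallest difference included Rgs1 (7.6 and 10.0 TPM in Lhx8, 283 and 223 TPM here), Rac2 (3.09 and 1.89 against 53.6 and 55.0 TPM), a GTPase of blood cells, and Ctsk (4.79 and 4.11 against 65.8 and 42.9 TPM), the cathepsin of osteoclasts. Osm, a cytokine, and Batf, a transcription factor of immune cells, were listed at 0 in all 8 other libraries of day 11 and at 9.12 and 14.8 TPM and 4.71 and 25.6 TPM in the Sub1-labelled pair. For such genes the 4 tests repeat 1 difference (3.66 each time for Osm) and give no separate support. The Sub1-labelled pair alone could also carry them through the filter. Hspa1b, a heat shock gene whose near-identical copy is Hspa1a, was also among them, at 25.6 and 21.2 TPM against 0.73 to 13.0 TPM elsewhere on day 11.

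The lower genes were of low to moderate level. Mpc1, a subunit of the mitochondrial pyruvate carrier, was listed at 0 in both Sub1-labelled libraries and at 4.1 to 42.9 TPM in the other libraries of day 11. Arhgef39 stood at 6.41 and 2.07 TPM against 56.7 and 31.3 TPM in wild type, Mxd3, a MAX partner, at 0.66 and 0.41 against 6.76 and 10.4 TPM, and Zpbp2 at 0 in both against 5.9 and 6.75 TPM.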

How the results depend on the processing

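The rise of 1661 and fall of 1139 genes against wild type became 1080 and 729 with the 4 libraries alone, and 2820 and 2210 with no fold threshold. Without a fold threshold the counts against Lhx8, Figla and Stat3 (main 689, 1942 and 745) became 1578, 3839 and 1733. With day 11 libraries alone those against Lhx8 and Stat3 became 357 and 444, and without replicate 2 of Stat3 487. Leaving out each library in turn gave 1499 to 1660 higher, 1089 to 1242 lower, 510 to 799 against Lhx8, 1645 to 1905 against Figla, 487 to 898 against Stat3, and -0.55 to -0.43 for Sub1. The cause of these shifts was not tested. The Tspear difference (0.36, not called) went to -1.45 without replicate 1 of the Sub1-labelled group and to 2.17 without replicate 2, where its values were 11.4 and 0 TPM. Under the other alternatives these counts moved by less than 1.5 times. With the replicate number as a block 1665 genes were higher and 1137 lower, and no call of a named gene changed. The deviations of same-numbered libraries of wild type and Sub1 correlated at -0.015, so no large shared deviation was seen. This cannot show whether the numbers pair the libraries. With 2 libraries a group and no read depth, small differences of low genes cannot be resolved.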
